A study of Mus musculus with 8 samples.

Results

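The genes described are the 8 enzymes that carry acetyl-CoA through mevalonate to squalene in mouse liver, namely Acat2, Hmgcs1, Mvk, Pmvk, Mvd, Idi1, Fdps and Fdft1. The rule was their place in the pathway, which uses no measured value, though earlier results of these data were known when it was set. All 8 were among the 19267 genes of the count table, and all 8 were among the 13993 genes that passed the filter on low counts. Liver total RNA was sequenced from male C57BL/6 mice aged 9 weeks in 4 groups of 2 libraries each. WT EtOH and Elf4-/- EtOH mice were pair-fed for 21 days from 6 weeks of age on the liquid diet of Lieber-DeCarli, which held 5% (w/v) alcohol, and WT Control and Elf4-/- Control mice received isocaloric maltose dextrin instead. Elf4-/- mice (Elf4fl/fl-Villin-Cre in the labels) carried floxed Elf4, which encodes an ETS-family transcription factor, together with Cre under the villin promoter, so the deletion was made in intestinal epithelium while the liver was what was sequenced. WT mice carried Cre as well according to the study's methods, and wild type is all that the labels give. No source says that the 2 libraries of a group came from separate animals, so the p-values measure the spread between these libraries, which may be technical.

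The mevalonate pathway builds isoprenoids from acetyl-CoA. Acat2 (cytosolic acetoacetyl-CoA thiolase) joins acetyl-CoA units, Hmgcs1 (cytosolic HMG-CoA synthase) makes HMG-CoA, Mvk, Pmvk and Mvd phosphorylate and decarboxylate mevalonate to isopentenyl diphosphate, Idi1 isomerises it, Fdps assembles farnesyl diphosphate, and Fdft1 (squalene synthase) commits farnesyl diphosphate to squalene and so to cholesterol. In liver these genes are known targets of SREBP2, the sterol-sensing transcription factor encoded by Srebf2, which binds sterol regulatory elements beside NF-Y bound at CCAAT boxes.

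Promoter windows of 250 bases before the transcription start, taken from RefSeq on GRCm38.p6, were found for 6 of the 8 genes, all but Fdps and Fdft1. Pmvk had 2 windows, so the 6 genes held 7 windows. Counts below are of genes, whereas the shares beside them are of single windows. All 250 bases of the Idi1 window lay in exons of the GENCODE annotation, counting exons of any gene. That annotation starts Idi1 at base 8885501, inside the window of 8885356 to 8885605. The Idi1 matches to CCAAT counted below lie past that start, within the annotated gene. The sterol regulatory element of the letters TCACNCCAC, searched on both strands, was present in 1 of the 6, Hmgcs1, and in 1.05% of all 32851 mouse promoter windows of that length. CCAAT on either strand was present in 5 of the 6, with 5 matches in Mvk, 3 in Hmgcs1, 2 each in Mvd and Idi1, 1 in Pmvk and none in Acat2, and in 33.8% of all windows. The E-box CACGTG was in none of the 6 and in 6.02% of all windows. The windows of 3 genes with more than 1 match are shown because Hmgcs1, Mvk and Mvd were among the enzymes with lower values in both WT EtOH libraries and higher values in both Elf4-/- EtOH libraries than in their Control libraries. Only bases outside every annotated exon are printed, 5′ to 3′ on the strand of the gene, with CCAAT, its reverse complement ATTGG and the sterol element in capitals. A match describes these letters and is not evidence of binding.
Hmgcs1, chr13:119690101-119690350, plus strand: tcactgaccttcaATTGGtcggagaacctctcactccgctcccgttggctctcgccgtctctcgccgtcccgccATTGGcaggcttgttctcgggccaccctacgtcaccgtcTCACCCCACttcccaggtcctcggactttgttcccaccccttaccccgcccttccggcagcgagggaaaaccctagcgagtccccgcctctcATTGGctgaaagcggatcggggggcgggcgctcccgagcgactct
Mvk, chr5:114444061-114444268, plus strand: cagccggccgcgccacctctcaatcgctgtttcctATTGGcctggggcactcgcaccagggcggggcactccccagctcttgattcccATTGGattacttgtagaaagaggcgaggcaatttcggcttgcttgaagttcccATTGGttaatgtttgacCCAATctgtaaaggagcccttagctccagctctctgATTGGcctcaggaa
Mvd, chr8:122443423-122443672, minus strand: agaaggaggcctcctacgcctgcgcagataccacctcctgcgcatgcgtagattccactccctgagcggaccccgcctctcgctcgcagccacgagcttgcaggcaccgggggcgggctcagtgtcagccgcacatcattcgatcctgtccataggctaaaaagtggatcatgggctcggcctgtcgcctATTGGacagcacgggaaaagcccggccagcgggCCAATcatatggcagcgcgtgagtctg

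Library totals ran from 6171051 to 9157362 counts. Genes of the mitochondrial genome took between 18.33% and 22.13% of the counts in the 4 Elf4-/- libraries. They took 23.42% and 33.69% in the WT Control pair but 10.77% and 12.54% in the WT EtOH pair. Values below are CPM, counts relative to the library total, scaled by TMM factors, which correct the library total for such differences in composition. Fold changes are on the log2 scale with their standard error, from the quasi-likelihood test of edgeR, and p-values were adjusted by Benjamini-Hochberg over 13993 genes and called at 0.05. Elf4 itself had between 6 and 36 counts per library in liver, and its fitted log2 difference between Elf4-/- EtOH and WT EtOH was -0.06 ± 0.50, which does not check a deletion made in intestine. The defining hepatocyte markers Alb, Apoa1, Apob, Ttr, Cps1 and Serpina1c were above 0 in every group, with a summed level between 32700 and 73700 CPM. The comparisons described below share libraries with each other, since each group entered more than 1 of them.

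The 8 enzymes differed widely in level. Per kilobase of annotated exon, the mean over the 8 libraries was 93.1 CPM for Hmgcs1, 25 for Fdft1, 15.6 for Acat2, 8.0 for both Pmvk and Mvd, 2.99 for Mvk, 1.58 for Idi1 and 0.911 for Fdps. The ranges of neighbours in this order overlapped for every pair when the libraries of all groups were put together. Fdps rested on 9 to 50 counts and Idi1 on 14 to 110 counts per library, whereas Hmgcs1 rested on 1045 to 5671.

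The first question was whether livers of Elf4-/- and WT mice differed while both received alcohol. All 8 enzymes were higher in both Elf4-/- EtOH libraries than in both WT EtOH libraries, and 20.0% of all genes tested showed that separation. Hmgcs1 and Fdft1 rose past the threshold, which 0.121% of all genes tested passed upwards. The fitted log2 differences ran from 1.12 for Acat2 to 2.49 for Mvd with a median of 1.82, against a median of 0.00 over all genes tested. All 8 had an unadjusted p under 0.05 with a higher value, a result shared by 6.18% of genes.

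**Figure D1:**
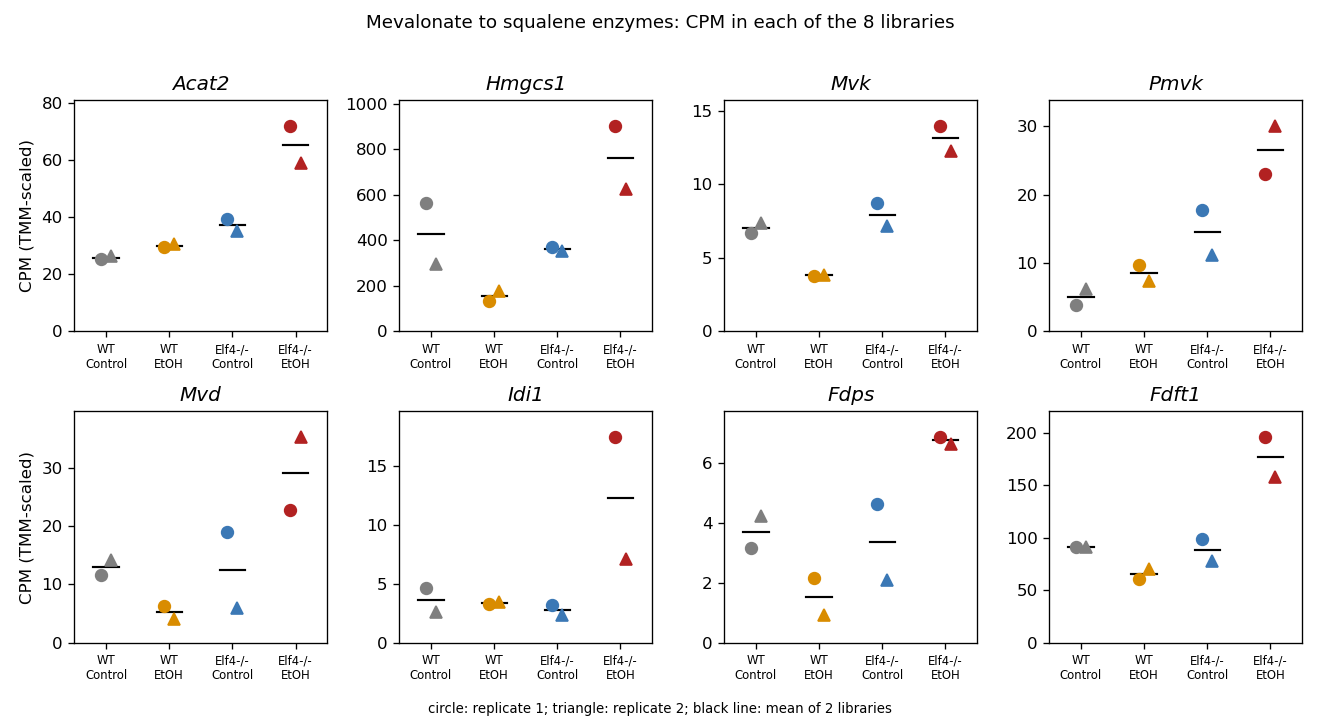
TMM-scaled CPM (y axis, linear from 0) of each of the 8 enzymes in the 4 groups (x axis); circles are replicate 1, triangles replicate 2 and black lines the mean of 2 libraries. In every panel both Elf4-/- EtOH points lie above both WT EtOH points, and Hmgcs1 runs from 132 CPM in a WT EtOH library to 904 CPM in an Elf4-/- EtOH library.

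Acat2, the thiolase of the first step (chromosome 17, 12942890 to 12960747, minus strand, GRCm38), had 29.5 and 30.8 CPM in WT EtOH and 72.2 and 59.0 CPM in Elf4-/- EtOH. Both Elf4-/- EtOH libraries were also above the Control libraries, which held 25.4 and 26.3 CPM in WT and 39.3 and 35.1 CPM in Elf4-/-. The log2 difference under EtOH was 1.12 ± 0.18, with an adjusted p of 0.0609. Acat2 has a close copy, Acat3, with 179 to 366 CPM per library, so reads of both could have been split or lost in the counting. Acat3 differed by 0.42 ± 0.23 (adjusted p = 0.575) in the same comparison.

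Hmgcs1, the synthase of the second step (chromosome 13, 119690379 to 119708260, plus strand), had 132 and 177 CPM in WT EtOH and 904 and 624 CPM in Elf4-/- EtOH. The 2 WT Control libraries held 564 and 296 CPM and the 2 Elf4-/- Control libraries 373 and 354 CPM. The lowest values of all were thus those of WT EtOH and the highest those of Elf4-/- EtOH, with the Control libraries of both genotypes between them. The log2 difference between the genotypes under EtOH was 2.30 ± 0.34, or 4.94-fold, with an adjusted p of 0.0418. A gene annotated antisense to Hmgcs1, Gm48342, overlaps 12.1% of its exon bases and held 4 to 65 counts per library. It too was higher in both Elf4-/- EtOH libraries than in both WT EtOH libraries, by 1.75 ± 0.63 (adjusted p = 0.373).

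The 3 enzymes that act on mevalonate and its phosphates were each higher in Elf4-/- EtOH, and none passed the threshold. Mvk, mevalonate kinase (chromosome 5, 114444269 to 114460591, plus strand), had 3.79 and 3.87 CPM in WT EtOH and 14.0 and 12.3 CPM in Elf4-/- EtOH, a log2 difference of 1.78 ± 0.28 with an adjusted p of 0.0521. The Control libraries lay between these pairs, at 6.71 and 7.36 CPM in WT and 8.71 and 7.16 CPM in Elf4-/-. Pmvk, phosphomevalonate kinase (chromosome 3, 89454541 to 89469013, plus strand), had 9.74 and 7.44 CPM in WT EtOH and 23.1 and 30.1 CPM in Elf4-/- EtOH, a log2 difference of 1.64 ± 0.31 with an adjusted p of 0.112. Its lowest values were in WT Control, at 3.92 and 6.26 CPM, and the Elf4-/- Control libraries held 17.8 and 11.2 CPM. Pmvk was in this respect unlike Hmgcs1 and Mvk, since both of its Elf4-/- Control values were above all 4 WT values.

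Mvd, mevalonate diphosphate decarboxylase (chromosome 8, 122433601 to 122443422, minus strand), had 6.32 and 4.08 CPM in WT EtOH and 22.8 and 35.2 CPM in Elf4-/- EtOH. The log2 difference was 2.49 ± 0.48, with an adjusted p of 0.112. WT Control held 11.6 and 14.2 CPM. The 2 Elf4-/- Control libraries were far apart, at 18.9 and 5.97 CPM, with counting intervals (95%, exact Poisson, counting error only) of 16.2 to 21.8 and 4.26 to 8.13 CPM that did not meet.

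Idi1, the isomerase (chromosome 13, 8885501 to 8892451, plus strand), had 3.29 and 3.46 CPM in WT EtOH and 17.5 and 7.16 CPM in Elf4-/- EtOH. Its 4 Control libraries lay between 2.39 and 4.66 CPM, so only the Elf4-/- EtOH pair stood above the rest, and that pair was itself widely spread. The log2 difference under EtOH was 1.86 ± 0.47 (adjusted p = 0.202), and 1.09 without Elf4-/- EtOH replicate 1. A transcript annotated on the opposite strand, Gm48574, covers 9.2% of its exon bases and was not analysed here. Fdps, which makes farnesyl diphosphate (chromosome 3, 89093588 to 89101959, minus strand), had 2.15 and 0.917 CPM in WT EtOH and 6.85 and 6.63 CPM in Elf4-/- EtOH. The lower of the WT EtOH values stood for 9 counts, with a counting interval of 0.419 to 1.74 CPM. The log2 difference was 2.15 ± 0.53 (adjusted p = 0.199). A protein-coding gene model on the same strand, Gm43738, shares 26.7% of the exon bases of Fdps, which makes the level of Fdps uncertain wherever shared reads were dropped.

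Fdft1, squalene synthase (chromosome 14, 63145150 to 63179578, minus strand), had 60.9 and 70.2 CPM in WT EtOH and 196 and 158 CPM in Elf4-/- EtOH. The WT Control libraries held 91.7 and 90.9 CPM and the Elf4-/- Control libraries 99.3 and 78.3 CPM. The order was the same as for Hmgcs1, with WT EtOH lowest, the Control libraries between and Elf4-/- EtOH highest. The log2 difference under EtOH was 1.43 ± 0.21, or 2.69-fold, with an adjusted p of 0.0418. Fdft1 shares 18.3% of its exon bases with Ctsb (cathepsin B) on the opposite strand, and the counting is not stated to have used strand. Ctsb had 507 and 465 CPM in WT EtOH and 469 and 378 CPM in Elf4-/- EtOH, and its log2 difference was -0.20 ± 0.24 (adjusted p = 0.834).

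DESeq2 (Wald test, Benjamini-Hochberg) placed all 8 enzymes past an adjusted p of 0.05 in the comparison of genotypes under EtOH, and 149 genes higher and 31 lower over the whole table, where edgeR placed 17 and 3. With library totals alone in place of TMM factors, no enzyme passed, their median was 1.57, that of all genes was -0.23, and 10 genes were called higher and 4 lower. The edgeR count moved with single libraries. It was 0 without either WT EtOH library or without Elf4-/- Control replicate 1, 1 without either WT Control library (Hmgcs1) or without Elf4-/- Control replicate 2 (Mvd), 6 without Elf4-/- EtOH replicate 1 and 5 without Elf4-/- EtOH replicate 2.

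Cell type markers moved with the same comparison. All 6 Kupffer cell (liver macrophage) markers were lower in Elf4-/- EtOH than in WT EtOH, 2 of them past the threshold, which 0.0214% of genes passed downwards, and their summed level was 189 to 199 CPM against 505 to 558 CPM. The 5 sinusoidal endothelial markers summed to 112 to 171 CPM against 225 to 265 CPM. The 6 hepatocyte markers summed to 40900 to 54800 CPM in Elf4-/- EtOH and 32700 to 39200 CPM in WT EtOH, with a median log2 difference of 0.39 and none past the threshold. Stellate cell markers had a median difference of 0.02 and bile duct markers -0.06. The part of these markers in the enzymes' values was not tested, and fewer cells of a type cannot be told apart from less RNA per cell in bulk samples.

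The second question was whether the genotypes already differed on the Control diet. No enzyme passed the threshold by edgeR, where 0.00715% of genes passed in each direction, and 2 had an unadjusted p under 0.05, against 4.37% of genes upwards. These were Pmvk, with a log2 difference of 1.52 ± 0.34 (adjusted p = 0.279), and Acat2, with 0.53 ± 0.19 (adjusted p = 0.579). They were also the only 2 of the 8 whose Elf4-/- Control libraries both lay above both WT Control libraries, a separation that 20.0% of genes showed. DESeq2 called 1 enzyme, Pmvk, with an adjusted p of 0.0452, beside 45 of 13993 genes called higher and 34 called lower. The other 6 differed by -0.36 to 0.18, and the median of the 8 was -0.03 against 0.01 for all genes. For Fdft1 the 95% interval of the difference ran from -0.51 to 0.43 and for Hmgcs1 from -0.97 to 0.49, so differences of those sizes remain within the error.

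**Figure D2:**
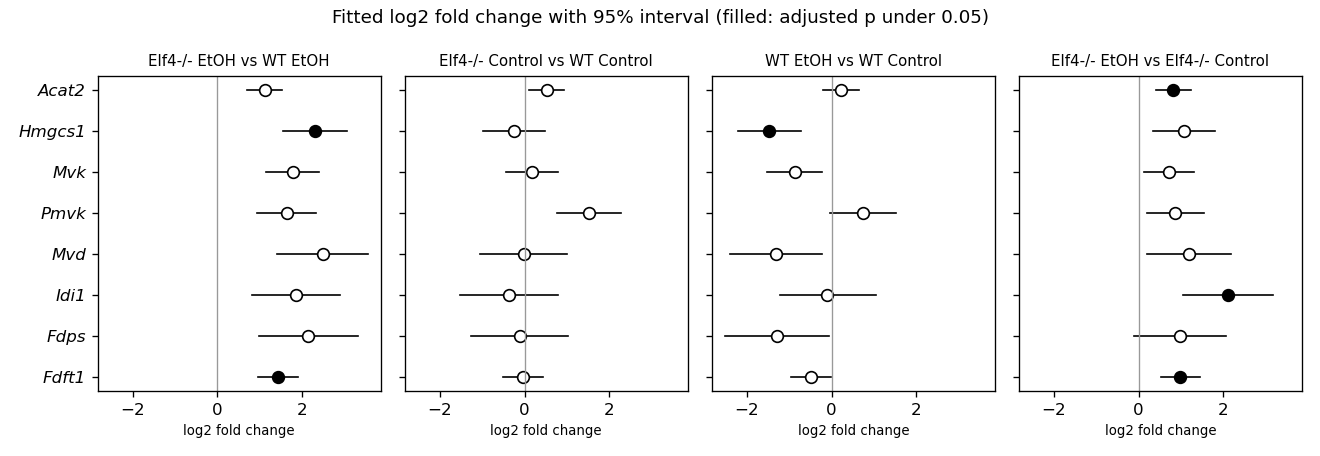
Fitted log2 fold change (x axis) of the 8 enzymes (y axis) in 4 comparisons, one per panel; points are edgeR estimates, lines 95% intervals, and filled points have an adjusted p under 0.05. The intervals of all 8 lie above 0 between the genotypes under EtOH, while on the Control diet only those of Acat2 (0.11 to 0.94) and Pmvk (0.76 to 2.28) do.

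The third question was the effect of alcohol in each genotype. In WT, Hmgcs1 fell past the threshold by 1.47 on the log2 scale (SE 0.33, adjusted p = 0.0144), to 0.36 of its Control level. Alcohol moved much of the WT transcriptome, and 10.8% of all genes tested were called lower and 10.8% higher. Mvk (-0.87 ± 0.29), Mvd (-1.32 ± 0.49), Fdps (-1.29 ± 0.55) and Fdft1 (-0.48 ± 0.21) were also lower in both WT EtOH libraries than in both WT Control libraries, with adjusted p between 0.0578 and 0.133. With Hmgcs1, this made 5 of 8 enzymes separated downwards, where 32.7% of genes were, and all 5 had an unadjusted p under 0.05, where 18.3% of genes had one downwards. Acat2 (0.22 ± 0.19) and Pmvk (0.75 ± 0.35) were higher in both WT EtOH libraries, where 34.1% of genes were, and Idi1 (-0.10 ± 0.51) overlapped between the diets. The median of the 8 was -0.68 against 0.01 for all genes.

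The fall of Hmgcs1 in WT depended on the libraries. It was -0.94 and did not pass without WT Control replicate 1, whose 564 CPM was 1.90 times that of the other WT Control library. Leaving out the first WT EtOH library gave -1.28 and leaving out the second gave -1.71, and it passed in neither. Fdps was -1.99 and -0.79 in the same order, and Pmvk was 0.45 without WT Control replicate 1. Mvd passed in addition when either Elf4-/- Control library was left out, and by DESeq2. Over all genes, DESeq2 called 1391 higher and 1418 lower in this comparison. Scaling by library totals alone in edgeR shifted the median of all genes to 0.44. The edgeR calls moved to 3422 higher and 634 lower, from 1518 and 1507. Under that scaling Hmgcs1 still passed as lower, Acat2 (0.65) and Pmvk (1.17) passed as higher, and the median of the 8 was -0.24, which is below that of all genes. Hepatocyte markers summed to 32700 to 39200 CPM in WT EtOH and 53300 to 73700 CPM in WT Control, and Kupffer cell markers to 505 to 558 CPM and 151 to 199 CPM. All 6 Kupffer cell and all 5 sinusoidal endothelial markers rose past the threshold. Their part in the lower enzyme values of WT EtOH was not tested.

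In Elf4-/- mice, Acat2 rose by 0.82 ± 0.18 (adjusted p = 0.047), Idi1 by 2.12 ± 0.48 (0.0484) and Fdft1 by 0.99 ± 0.21 (0.0412) under alcohol. These were 3 of the 8 enzymes, and 1.71% of all genes tested rose past the threshold. All 8 were higher in both Elf4-/- EtOH libraries than in both Elf4-/- Control libraries, a separation that 25.8% of genes showed. An unadjusted p under 0.05 was found for 7 of the 8, where 10.9% of genes had one upwards. The 5 that did not pass had log2 differences of 0.72 (Mvk) to 1.20 (Mvd) and adjusted p between 0.103 and 0.281. The median of the 8 was 0.98 against 0.01 for all genes. DESeq2 called the same 3 enzymes and Hmgcs1, beside 452 of 13993 genes called higher and 359 called lower. The 3 calls were close to the threshold, and no enzyme passed with library totals alone or without any 1 of 7 libraries. Without Elf4-/- EtOH replicate 2, 4 enzymes passed. Idi1 was 1.34 without Elf4-/- EtOH replicate 1. Mvd and Fdps were 2.28 and 1.68 without Elf4-/- Control replicate 1, and 0.62 and 0.55 without Elf4-/- Control replicate 2. Here the hepatocyte marker sum was 40900 to 54800 CPM against 64500 to 72000 CPM in Elf4-/- Control, lower under alcohol. The single markers did not move together, since 3 of the 6 were higher and 3 lower. Their median log2 difference was -0.05, and none passed the threshold. The sum of Kupffer cell markers was 189 to 199 CPM against 139 to 142 CPM.

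The interaction of genotype and diet asks whether the diet response differed between the genotypes. It was above 0 for all 8 enzymes, from 0.12 ± 0.47 for Pmvk to 2.55 ± 0.47 for Hmgcs1, and the median was 1.91 against 0.00 for all genes. The direction for Pmvk did not hold with library totals alone, which gave -0.35. No enzyme passed the threshold by edgeR, and neither did any of the 13993 genes (0.0%). An unadjusted p under 0.05 was found for 7 of the 8, all but Pmvk, where 4.94% of genes had one upwards. DESeq2 called 3 enzymes as higher, Hmgcs1, Mvd and Fdft1, beside 83 of 13993 genes called higher and 28 called lower. In 5 of the 8, both EtOH libraries were below both Control libraries in WT and above them in Elf4-/-, a joint pattern that 1.89% of genes showed.

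Averaged over the 8 enzymes, each centred on its mean log2 CPM over all libraries, the level was 1.13 and 0.93 in Elf4-/- EtOH and -0.67 and -0.83 in WT EtOH. On the Control diet it was 0.21 and -0.35 in Elf4-/- and -0.20 and -0.23 in WT. Both WT EtOH libraries were thus the lowest of the 8 and both Elf4-/- EtOH libraries the highest, and the Elf4-/- Control pair spanned both WT Control values. The group means were 1.03 ± 0.14, -0.75 ± 0.11, -0.07 ± 0.40 and -0.21 ± 0.02 (SD, n = 2) in the same order.

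**Figure D3:**
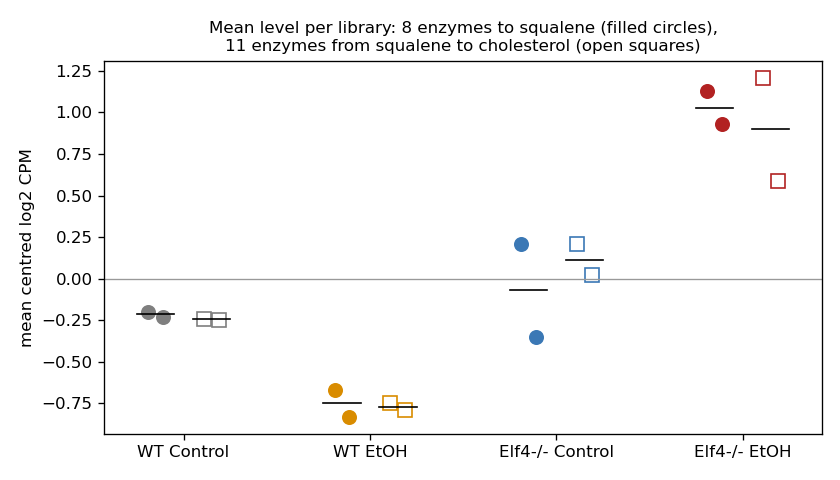
Mean centred log2 CPM (y axis) per library in the 4 groups (x axis) for the 8 enzymes up to squalene (filled circles) and the 11 enzymes from squalene to cholesterol (open squares); black lines are means of 2 libraries. Both sets are lowest in WT EtOH (-0.67 and -0.83 for the 8 enzymes) and highest in Elf4-/- EtOH (1.13 and 0.93).

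The enzymes did not follow one another equally closely. Over the 8 libraries the correlation of log2 CPM between pairs of the 8 ran from 0.42 (Hmgcs1 and Pmvk) to 0.96 (Mvd and Fdps). The 5 lowest pairs all held Pmvk or Idi1. Pmvk was, with Acat2, one of the 2 enzymes already separated upwards in Elf4-/- Control, and Idi1 the one whose other 3 groups lay together between 2.39 and 4.66 CPM. These values share libraries and depth and are given as a description.

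The 11 enzymes that convert squalene to cholesterol were read beside them. Between the genotypes under EtOH, 4 of the 11 rose past the threshold, beside 0.121% of genes, and none fell. These were Sqle, squalene epoxidase and a rate-controlling step (3.69 ± 0.32, adjusted p = 0.00173), Msmo1 (2.67 ± 0.31), Dhcr7 (2.57 ± 0.29) and Nsdhl (2.54 ± 0.30). Another 6 had higher values, from 0.80 to 1.77. The median of the 11 was 1.72, beside 1.82 for the 8 enzymes up to squalene. Sqle averaged 6.33 CPM in WT EtOH, the lowest group, and 82.1 CPM in Elf4-/- EtOH, the highest, with 31.1 and 41.6 CPM in the Control groups of WT and Elf4-/-.

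Under alcohol in WT, 4 of the 11 fell, namely Sqle (-2.29 ± 0.31), Dhcr7 (-1.85 ± 0.29), Nsdhl (-1.62 ± 0.30) and Sc5d (-1.03 ± 0.23), and 1 rose, where 10.8% of genes fell and 10.8% rose. Under alcohol in Elf4-/-, 3 of the 11 rose, namely Msmo1 (1.68 ± 0.30), Cyp51 (1.58 ± 0.31) and Hsd17b7 (1.32 ± 0.25), where 1.71% of genes rose. The genotypes on the Control diet gave no call among the 11 by edgeR or DESeq2 and no unadjusted p under 0.05, which 7.31% of genes had in either direction. All 11 nevertheless had higher values in Elf4-/- Control, with a median of 0.38 and a range from 0.03 to 0.58, and 7 of the 11 were separated upwards, beside 20.0% of genes.

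**Figure D4:**
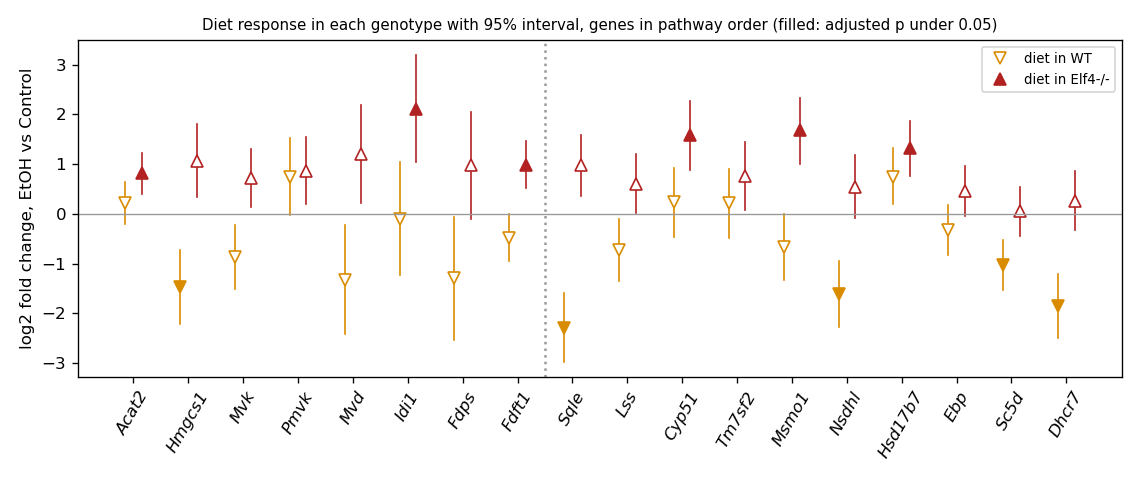
Log2 fold change of EtOH against Control (y axis) in WT (downward triangles) and Elf4-/- (upward triangles) for the 8 enzymes up to squalene (left of the dotted line) and 10 of the 11 from squalene to cholesterol (right), in pathway order (x axis); lines are 95% intervals and filled symbols have an adjusted p under 0.05. Hmgcs1 lies at -1.47 in WT and 1.07 in Elf4-/-, whereas Pmvk lies at 0.75 and 0.87.

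Genes that sense sterols or take up LDL were read next. Of 11 tested genes of sterol sensing and LDL uptake, none passed between the genotypes under EtOH by edgeR or DESeq2, 8 had an unadjusted p under 0.05 with a higher value, beside the 6.18% of all genes given above, and the median was 0.86. Srebf2, named here after its values were seen, differed by 0.85 ± 0.24 (adjusted p = 0.256). In WT under alcohol, 2 of the 11 passed as lower and 1 as higher, where 10.8% of all genes passed in each direction. Srebf1, which encodes the SREBP of fatty acid synthesis, fell by 2.71 (SE 0.57), and Scap, the SREBP escort protein, fell by 1.15 (SE 0.23). Mylip, an LDL receptor ubiquitin ligase, rose by 1.36 ± 0.28. None of the 11 passed in Elf4-/- under alcohol by edgeR or DESeq2, and 4 had an unadjusted p under 0.05, 2 in each direction, where 10.9% of genes were higher and 10.3% lower.

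Of 8 genes of sterol efflux and esterification, none passed between the genotypes under EtOH by either tool, and 3 had an unadjusted p under 0.05, 2 higher and 1 lower, where 4.32% of genes were lower. In WT under alcohol, 1 of the 8 passed as higher and 2 as lower, where 10.8% of all genes passed in each direction. The efflux transporter Abcg1 rose by 1.88 ± 0.33. The biliary sterol transporter Abcg5 and the sterol esterification enzyme Soat2 fell by 1.46 (SE 0.24) and 1.08 (SE 0.23). Abcg5 also fell in Elf4-/- under alcohol, by 1.10 (SE 0.24), as 1.18% of genes did. The 11 genes that use isoprenoids outside the sterol branch, such as those of ubiquinone, dolichol and protein prenylation, gave no call in any of the 5 contrasts by edgeR or DESeq2. Their median between the genotypes under EtOH was -0.17, with a range from -0.49 to 0.45, and none had an unadjusted p under 0.05 there, which 10.5% of genes had in either direction. In WT under alcohol 2 of them did, both lower, as did 18.3% of genes.

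Of 6 genes of acetyl-CoA supply, none passed between the genotypes under EtOH by edgeR, 3 had an unadjusted p under 0.05 with a higher value, beside 6.18% of genes, and DESeq2 called 1 as higher, beside 149 of 13993 genes. On the Control diet none passed by either tool, but all 6 were higher in both Elf4-/- libraries, as were 20.0% of genes, 4 had an unadjusted p under 0.05, as did 4.37% of genes upwards, and the median was 0.62. In WT under alcohol, 1 of the 6 passed as higher, beside 10.8% of genes, and none passed as lower. This was Pdha1, a pyruvate dehydrogenase subunit, which rose by 0.68 ± 0.19. Of 5 paralogs and ketone body enzymes tested, 2 passed as higher and 1 as lower in WT under alcohol, beside 10.8% of genes in each direction. Acat1, the mitochondrial thiolase, rose by 0.83 ± 0.22 there, where the cytosolic Hmgcs1 fell. Acat3 fell by 0.93 (SE 0.23) in WT, where its neighbour in sequence Acat2 differed by 0.22 ± 0.19.

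Among 9392 genes averaging 50 counts or more, those whose log2 CPM was most alike to the mean of the 8 enzymes over the 8 libraries included Gm11574 (Pearson r = 0.953), Msmo1 (0.953), Mmab (0.933), Letm1 (0.926), Gm3571 (0.923), Lss (0.918) and Mocs2 (0.908). Msmo1 and Lss are enzymes of the squalene to cholesterol steps, and 9 genes in all reached 0.9. The correlation takes no account of the size of a change. Gm11574 ran only from 20.8 to 28.5 CPM over the libraries and Mocs2 from 95.4 to 141 CPM, whereas Msmo1 ran from 50.2 to 440 CPM. Mmab, which encodes a cobalamin adenosyltransferase, is the divergent neighbour of Mvk, and the exon bases left out of the Mvk window above lie on its side. Mmab held 12.1 and 10.9 CPM in WT EtOH and 30.0 and 25.1 CPM in Elf4-/- EtOH, with 16.6 to 21.5 CPM in the Control libraries, the same order as Mvk. It fell in WT under alcohol by 0.76 (SE 0.23, adjusted p = 0.0383), and its difference between the genotypes under EtOH was 1.26 ± 0.22 (adjusted p = 0.0873). Mmab was picked by its likeness over these same libraries, so the directions of both differences are not independent of that choice.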

How the data were processed

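Liver RNA was sequenced in 8 libraries, 2 in each of 4 groups taken from the titles in the labels. Per the study's methods, the authors mapped paired-end HiSeq reads to mm10 with HISAT2, sorted with SAMtools and counted with HTSeq, and tested with DESeq2. Versions, annotation and strand setting are not given in the sources used here, so reads of overlapping or near-identical genes may have been lost or split. The deposited values are whole-number counts per gene symbol, not normalized, which the authors did not pool. All columns of the samples were used, and 968 rows with no gene symbol were left out.

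Genes were filtered with filterByExpr by group (13993 of 19267 kept) and scaled by TMM. One model of all 8 libraries with a factor of 4 groups was fitted in edgeR 4.0.16 (R 4.3.3) with the quasi-likelihood test, p-values were adjusted by Benjamini-Hochberg and called at 0.05, so that all contrasts shared 1 estimate of the spread (common biological coefficient of variation 22.7%). A standard error is the log2 fold change divided by the root of F. Log2 CPM used a prior count of 2. The code was tested on simulated data. Library totals of 6171051 to 9157362 counts set the precision of low genes such as Fdps, and counting intervals (95%, exact Poisson) cover counting error only. Coordinates and exon lengths are from GENCODE M21 on GRCm38, promoter windows from RefSeq on GRCm38.p6.

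The 8 enzymes and the gene lists were chosen with earlier results of these data known. The text names the 8 enzymes, up to 4 genes past the threshold per list and contrast, genes that overlap an enzyme, the paralog Acat3, and the 8 genes most alike; some genes that meet this rule are counted but not reported here by name. Alternatives were DESeq2 1.42.0, median-of-ratios size factors, library totals alone, removal of the 27 genes of the mitochondrial genome, no filter, only the 4 libraries compared, the replicate number as a block, and each library left out.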

Additional observations from a re-analysis of the deposited data

Results flagged for a closer look

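For 5 of the 8 enzymes both WT EtOH libraries lay below both WT Control libraries while both Elf4-/- EtOH libraries lay above both Elf4-/- Control libraries, so that alcohol was accompanied by opposite shifts in the 2 genotypes. Of all genes tested, 1.89% showed the same pattern. The difference between the diet responses (interaction, log2) was 2.55 for Hmgcs1, 1.60 for Mvk, 2.51 for Mvd, 2.27 for Fdps and 1.47 for Fdft1. By edgeR's quasi-likelihood test the adjusted p of these ran from 0.212 to 0.347, and none passed. DESeq2 called Hmgcs1, Mvd and Fdft1, beside 83 of 13993 genes called higher and 28 called lower, and gave no adjusted p for Mvk and Fdps.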

How the results depend on the processing

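Every one of the 8 enzymes kept its higher value between the genotypes under EtOH in each alternative run, with a median of 1.57 (library totals alone) at the lowest and 1.71 to 2.0 with 1 library left out. The number past the threshold was 2 by edgeR, 8 by DESeq2, 6 without a filter, 0 with library totals alone, 0 in a fit of only the 4 libraries compared, and 0 to 6 with 1 library left out. On the Control diet DESeq2 called 1 and edgeR 0 in all alternatives, and the median was 0.22 with library totals alone and -0.24 to 0.32 with 1 library left out. The sign of the near-zero differences there turned with library totals alone for Hmgcs1 (0.00), Mvd (0.24), Fdps (0.14) and Fdft1 (0.20), and without a filter for Mvd (0.01). With 1 library left out they ran from -0.63 to 0.30 for Hmgcs1, -0.72 to 0.13 for Idi1, -1.10 to 0.56 for Mvd, -0.81 to 0.32 for Fdps and -0.21 to 0.13 for Fdft1. For alcohol in WT, the count was 1 by edgeR, 2 by DESeq2, 3 with library totals alone (median -0.24), 2 with only the 4 libraries compared and 0 to 2 with 1 left out (medians -0.71 to -0.62), and Idi1 turned to 0.34 with library totals alone and ran from -0.46 to 0.39 with 1 left out. For alcohol in Elf4-/-, the count was 3, but 0 with library totals alone or only the 4 libraries compared, and 0 to 4 with 1 left out (medians 0.68 to 1.21). The interaction gave 0 calls by edgeR, 3 by DESeq2 and 0 to 2 with 1 left out, with a median of 1.42 with library totals alone and 1.47 to 2.10 with 1 left out, and Pmvk turned to -0.35 and ran from -0.26 to 0.50. Library totals alone leave composition uncorrected, and the median of all genes moved to 0.44 in WT under alcohol and to -0.47 in the interaction. Other causes were not tested. The interaction was not fitted on 4 libraries, since it needs all groups.

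With the replicate number as a block, 0 enzymes passed between the genotypes under EtOH and 1, Idi1, under alcohol in Elf4-/-, and no other count of enzymes changed. Same-numbered libraries did not deviate together, with correlations of -0.134 to 0.114 between pairs of groups over 9398 genes, so they share only a number. A library left alone in its group was assumed to vary like the others. Depth limits Fdps and Idi1 most.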
